A study of Mus musculus with 4 samples.

Results

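The 10 genes described here belong to the insulin-like growth factor (IGF) system, measured in cerebral cells that the study's methods give as CD31+CD45-. They are the ligand gene Igf1, the receptor genes Igf1r and Insr, the binding protein genes Igfbp2, Igfbp3, Igfbp4, Igfbp5, Igfbp6 and Igfbp7, and Igf2bp1, which shares the name but encodes an RNA-binding protein. They were selected by gene symbol, with earlier results of these data known, and all 10 were found among the 24873 genes listed. RNA was sequenced in 2 control and 2 tamoxifen libraries, each of cells pooled from 3 mice. All mice carried an Mgp flox/flox allele pair and a tamoxifen-dependent Cre recombinase under the VE-cadherin (Cdh5) promoter, which is active in endothelial cells, so that Mgp can be removed from these cells. The tamoxifen group had daily injections of tamoxifen (75 mg/kg) on 5 days, begun at an age of 10 weeks, and the control group had none. Cells of both were isolated on day 9. No library of tamoxifen-injected mice without the floxed gene was analysed here, so an effect of Mgp deletion and one of the drug cannot be told apart. The labels name the cells by a tdTomato reporter and the study's methods by CD31 and CD45. The value columns carry the letters C and A, of which C was read as control and A, a letter not in the labels, as tamoxifen.

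IGF1 binds the receptor tyrosine kinase IGF1R and, more weakly, the insulin receptor INSR, and both pass the signal through insulin receptor substrate (IRS) adaptors to PI3-kinase and AKT. The IGF binding proteins (IGFBPs) hold the ligand in blood and matrix and set how much of it reaches the receptor, while proteases release it again. Brain endothelium carries both receptors and is known for moving insulin and IGF1 from blood into brain.

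The libraries held between 35387438 and 49799321 reads on genes, recovered from the deposited normalized counts, which are read counts that the authors divided by 1 factor per library. In normalized counts, Mgp was at 1094 and 1352 in the control group and at 945 and 909 in the tamoxifen group (log2 fold change -0.39, SE 0.18, limma with Benjamini-Hochberg (BH) adjustment, adjusted p = 0.0986). The adjusted p was not under 0.05, so these values do not show the deletion. The study reported a fall of Mgp after tamoxifen by real-time PCR of such cells. Each of 10 endothelial markers examined fell below both controls in both tamoxifen libraries. Their summed level was 882550 to 937908 normalized counts in the controls and 71991 to 147923 with tamoxifen, and none was at 0 reads. Of all tested genes, 43.1% were higher in both tamoxifen libraries than in both controls. In most lists of other cell types, and in those of pluripotency and of the cell cycle, most genes were higher in this way. This held for 10 of 10 pluripotency, 8 of 8 neutrophil, 8 of 8 cell cycle, 8 of 8 astrocyte, 7 of 7 erythrocyte, 7 of 8 fibroblast, 8 of 10 microglia and macrophage, 6 of 7 choroid plexus and ependymal, and 6 of 8 neuronal genes, whereas 4 of 10 pericyte and smooth muscle genes were higher and 1 was lower. Ptprc, the gene of the CD45 protein used to exclude cells in the sort, was among those higher. It had 50.7 and 83.9 normalized counts in the controls and 1423 and 1119 with tamoxifen. In bulk samples, fewer cells of a type and less RNA per cell cannot be told apart.

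All 10 IGF genes passed the cut-offs used here for a difference, an adjusted p under 0.05 and a log2 fold change over 1 in size. Of these, 6 were higher with tamoxifen (Igf1, Igfbp2, Igfbp4, Igfbp5, Igfbp6 and Igf2bp1) and 4 were lower (Igf1r, Insr, Igfbp3 and Igfbp7). The same cut-offs were passed by 44.7% of the 20485 genes tested, 28.6% higher and 16.0% lower, so a call as such was common in these libraries. No gene of the 10 had overlapping groups. Over all tested genes, 43.1% lay higher in both tamoxifen libraries than in both controls and 39.2% lay lower. The median size of the log2 fold change was 3.24 over the 10 genes and 1.05 over all tested genes, with signed medians of 1.91 and 0.05. Because the 10 genes were chosen with earlier results of these data known, this contrast cannot be read as a trait of the IGF system. The counts over all genes depend on the libraries and their scaling. Without tamoxifen library 1, 5024 genes were called and without tamoxifen library 2, 4147, against 9151 with all 4. Of the 9151, 5867 were higher and 3284 lower, a split that became 7206 and 1838 when all libraries were brought to equal totals (which moved the median of all genes by 0.47) and 4615 and 5509 after quantile normalization (by -0.28). The 10 genes kept their directions under both. Permuting 2 and 2 libraries exactly gives no two-sided p below 0.333 for 1 gene, so each adjusted p depends on the variance that limma borrows from other genes.

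**Figure D1:**
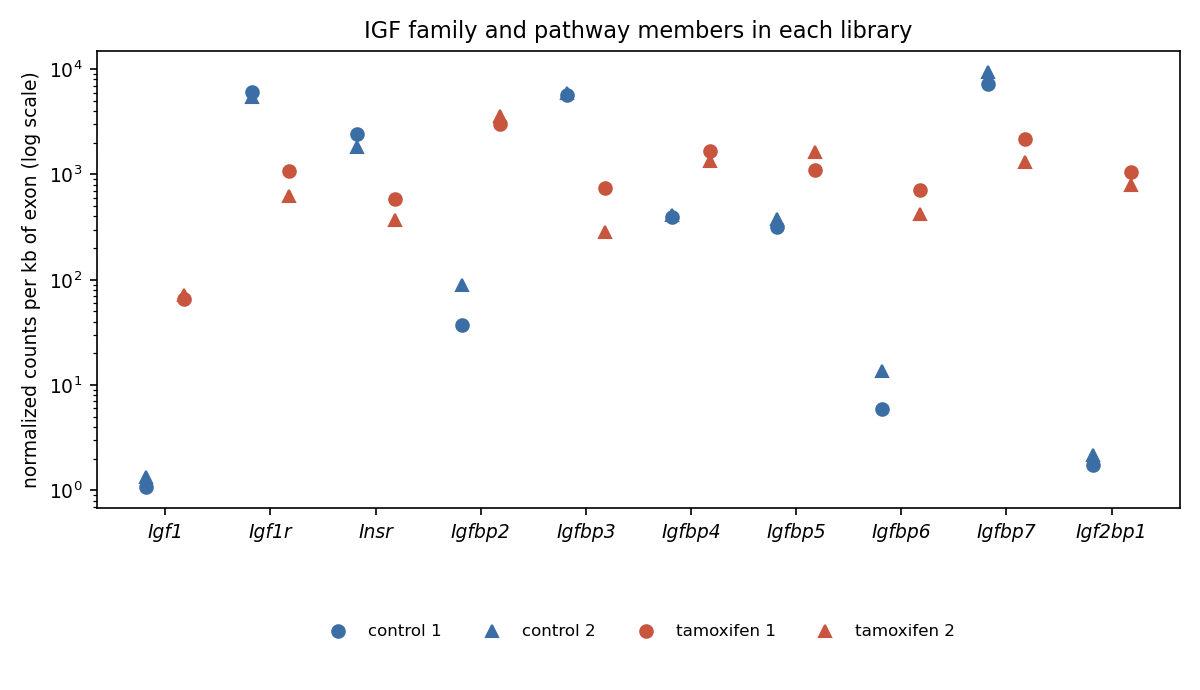
Level of each gene in each library, in normalized counts per kb of exon length on a log scale, with circles for library 1 and triangles for library 2 of each group (blue, control; red, tamoxifen). The receptor genes, Igfbp3 and Igfbp7 sit lower with tamoxifen, and Igf1, Igfbp2, Igfbp6 and Igf2bp1 go from at most 88.5 to between 65.9 and 3587 per kb.

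Igf1, the ligand, was close to absent in the control libraries, with 8 reads in control library 1 (exact 95% Poisson interval 3.45 to 15.8 reads) and 11 reads in control library 2 (5.49 to 19.7). These intervals cover counting error only. In normalized counts it was at 10.96 and 13.77 in the controls and at 674 and 728 with tamoxifen. Both tamoxifen libraries were thus far above both controls, 56.7-fold by the group means, and close to each other. The log2 fold change was 5.72 (SE 0.40, 95% interval 4.79 to 6.65, limma with BH adjustment, adjusted p = 3.55e-05). Per kb of its 10.2 kb of exons, Igf1 nevertheless had the lowest level of the 10 genes in every library, 1.07 and 1.35 normalized counts per kb in the controls and 65.9 and 71.2 with tamoxifen. The gene lies on chromosome 10 from 87693642 to 87772904 (GRCm39, plus strand). An antisense gene, Igf1os, spans part of this locus but shares no exon bases with Igf1.

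Igf1r, which encodes the IGF1 receptor (chromosome 7 from 67601518 to 67883416, plus strand), was among the more abundant transcripts of the control cells. It had 119290.0 and 107419 normalized counts there and 21132 and 12275 with tamoxifen. Per kb of exon this placed it at rank 160 and 194 of the 24364 genes with a known exon length in the control libraries and at rank 1116 and 2099 with tamoxifen. By the means the level was 6.79-fold lower with tamoxifen, and the log2 fold change was -2.81 (SE 0.32, 95% interval -3.55 to -2.08, limma with BH adjustment, adjusted p = 0.000218).

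Insr, the insulin receptor gene (chromosome 8 from 3172061 to 3329647, minus strand), moved in the same direction. It had 33374 and 24973 normalized counts in the controls and 8137 and 5130 with tamoxifen, without overlap, and a log2 fold change of -2.16 (SE 0.26, limma with BH adjustment, adjusted p = 0.000319). Its call was lost without tamoxifen library 2, where the log2 fold change was -1.83 (limma with BH adjustment, adjusted p = 0.0502). Insr was below Igf1r per kb in every library. The ratio of Igf1r to Insr per kb, which does not depend on how libraries are scaled, was 2.49 and 3.0 in the controls and 1.81 and 1.67 with tamoxifen.

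The binding proteins went both ways. In the control cells Igfbp7 and Igfbp3 made up nearly all of the transcripts of the 6 binding protein genes, and with tamoxifen Igfbp2, Igfbp4, Igfbp5 and Igfbp6 made up most of them. The bases upstream of the start sites of Igfbp2 and Igfbp6, the binding protein genes that rose the most, and of Igfbp7, the more abundant of those that fell, are shown here because these genes moved in opposite directions. The sequences are from RefSeq (GRCm38.p6), which gave a promoter for 8 of the 10 genes and none for Insr and Igf2bp1, and each was matched without a difference to 1 place on its chromosome in GRCm39. Each runs 5′ to 3′ on the strand of the gene over the 250 bases before the RefSeq start site, at chr1:72863389-72863638 (plus strand) for Igfbp2, at chr15:102052371-102052620 (plus strand) for Igfbp6 and at chr5:77555893-77556142 (minus strand) for Igfbp7. Capitals mark the GC box GGGCGG and the TATA box TATAAA, each on either strand.
Igfbp2: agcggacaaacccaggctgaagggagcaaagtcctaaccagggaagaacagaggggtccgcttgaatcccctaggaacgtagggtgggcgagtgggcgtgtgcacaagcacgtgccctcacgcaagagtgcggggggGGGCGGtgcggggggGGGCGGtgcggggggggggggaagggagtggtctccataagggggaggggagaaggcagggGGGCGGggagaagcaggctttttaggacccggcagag
Igfbp6: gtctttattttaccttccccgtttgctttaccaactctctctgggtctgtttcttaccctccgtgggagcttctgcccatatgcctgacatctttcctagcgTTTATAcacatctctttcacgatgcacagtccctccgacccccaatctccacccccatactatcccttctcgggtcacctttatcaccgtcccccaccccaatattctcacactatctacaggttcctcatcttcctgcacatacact
Igfbp7: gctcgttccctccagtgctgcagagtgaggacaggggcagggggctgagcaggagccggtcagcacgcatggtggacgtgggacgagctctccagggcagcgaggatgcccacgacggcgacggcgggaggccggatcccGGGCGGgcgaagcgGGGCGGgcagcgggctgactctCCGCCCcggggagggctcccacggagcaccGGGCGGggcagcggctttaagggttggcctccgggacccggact
The GC box was found at 3 places in the Igfbp2 window shown and at 4 in that of Igfbp7. That of Igfbp6 held none, and 1 match to the letters of the TATA box, read on the opposite strand. All boxes named here are matches of letters, and their function was not tested. A second RefSeq window of Igfbp2, at chr1:72864296-72864545 and not shown, held neither box and 11 CG dinucleotides. Among the other windows, that of Igf1r held 2 GC boxes and that of Igfbp4 held 1 TATA box. The RefSeq start sites of Igf1r, Igf1 and Igfbp3 lay 487, 2064 and 256 bases after the canonical GENCODE start, and the second of Igfbp2 lay 897 bases after it. Their windows of 250 bases therefore lie after that start and not upstream of it. The RefSeq start site of Igfbp6 lay at -76 bases from its canonical start, that is before it. Over all 32851 promoters in the table, 32.7% held the GC box and 12.4% the TATA box in the same 250 bases, and these matches did not overlap in the 3 windows shown. The POU octamer ATGCAAAT, which 1.60% of all windows held, was in none of the windows of these genes. CG dinucleotides numbered 14 in the Igfbp2 window shown, 7 in that of Igfbp6 and 26 in that of Igfbp7.

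Igfbp7 encodes a secreted protein of the vessel wall that binds IGFs with lower affinity than the classical IGFBPs (chromosome 5 from 77493130 to 77555931, minus strand). It had 39587 and 51785 normalized counts in the controls and 11775 and 7201 with tamoxifen. The log2 fold change was -2.30 (SE 0.28, 95% interval -2.95 to -1.64, limma with BH adjustment, adjusted p = 0.000319). It led the 10 genes per kb in both control libraries, at rank 127 and 102 of all genes, and was still at rank 445 and 713 with tamoxifen. Polr2b, on the opposite strand, shares 747 exon bases with it and had 5387 to 7023 normalized counts, all of which is below the lowest Igfbp7 value. The strand setting of the counting was not given in the sources used here, so reads over these shared bases cannot be assigned.

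Igfbp3, the main carrier of IGFs in blood (chromosome 11 from 7156086 to 7164179, minus strand), fell furthest of the 10. It had 20458 and 21059 normalized counts in the controls, which were nearly equal, and 2669 and 1008 with tamoxifen, which were not. By the means the level was 11.3-fold lower with tamoxifen, and the log2 fold change was -3.66 (SE 0.39, 95% interval -4.57 to -2.76, limma with BH adjustment, adjusted p = 0.000172), the 70th lowest of the 20485 tested genes. The 2 tamoxifen libraries disagreed on its size, since the log2 fold change was -4.36 without tamoxifen library 1 and -2.96 without tamoxifen library 2.

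Igfbp2, a binding protein that is abundant in the fetus and in the central nervous system, rose from a low level to the highest of the 10 genes per kb of exon. Without regard to length, the mean with tamoxifen was below those of Igf1r, Igf2bp1, Igfbp7 and Igfbp5. It had 78.1 and 184 normalized counts in the controls and 6295 and 7456 with tamoxifen. Control library 2 was 2.36-fold above control library 1, and without control library 1 the log2 fold change was 5.21 and without control library 2 6.44, against 5.82 with all 4 libraries (SE 0.36, 95% interval 4.98 to 6.67, limma with BH adjustment, adjusted p = 2.12e-05). Per kb it moved from rank 11852 and 9391 of all genes in the controls to rank 287 and 181 with tamoxifen.

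Igfbp6, which prefers IGF2 to IGF1 (chromosome 15 from 102052697 to 102057953, plus strand), rose by a similar factor from a still lower level. It had 6 reads (exact 95% Poisson interval 2.20 to 13.1) and 15 reads (8.40 to 24.7) in the control libraries, or 8.22 and 18.8 normalized counts, and 980 and 579 normalized counts with tamoxifen. The log2 fold change was 5.80 (SE 0.51, limma with BH adjustment, adjusted p = 8.75e-05), with the largest SE of the 10 genes. The fold change of 57.7 by the means therefore rests on few control reads.

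Igfbp4 and Igfbp5 were already present in the controls and rose about as much as each other. Igfbp4, the main substrate of the protease PAPP-A (chromosome 11 from 98932064 to 98945218, plus strand), had 1746 and 1831 normalized counts in the controls and 7384 and 5898 with tamoxifen, 3.71-fold more by the means (log2 fold change 1.88, SE 0.17, limma with BH adjustment, adjusted p = 8.75e-05). Igfbp5, which also binds extracellular matrix, had 1916 and 2265 in the controls and 6566 and 9727 with tamoxifen, 3.90-fold more (log2 fold change 1.94, SE 0.21, limma with BH adjustment, adjusted p = 0.000200). The tamoxifen libraries ranked in opposite order for these genes, with library 1 above library 2 for Igfbp4 and below it for Igfbp5. Igfbp5 and Igfbp2 are neighbours on chromosome 1, Igfbp2 on the plus strand from 72863606 to 72891634 and Igfbp5 on the minus strand from 72897091 to 72914043, with 5456 bases between their ends, and both were higher in both tamoxifen libraries.

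Shares within a library show the change in makeup without any scaling between libraries. Of the summed level per kb of the 6 genes, Igfbp7 took 52.8% and 58.3% in the controls and 23.0% and 15.4% with tamoxifen, and Igfbp3 41.7% and 36.2% in the controls and 7.96% and 3.30% with tamoxifen. Together they made up 94.5% in each control library and 30.9% and 18.7% with tamoxifen. Igfbp2 went from 0.273% and 0.543% to 32.2% and 41.9%, and became the first of the 6 per kb in both tamoxifen libraries. Igfbp4 went from 2.87% and 2.54% to 17.7% and 15.6%, Igfbp5 from 2.32% and 2.31% to 11.6% and 18.9%, and Igfbp6 from 0.0433% and 0.0834% to 7.54% and 4.90%. The summed level itself was 13761 and 16304 normalized counts per kb in the controls and 9411 and 8563 with tamoxifen. The order with tamoxifen depends on the division by exon length. Without it, Igfbp7 led on average at 27.8% (33.0% and 22.6%), before Igfbp5 at 24.5% (18.4% and 30.5%), Igfbp2 at 20.5% (17.6% and 23.4%) and Igfbp4 at 19.6% (20.7% and 18.5%), and only in tamoxifen library 2 was Igfbp2 above Igfbp7.

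**Figure D2:**
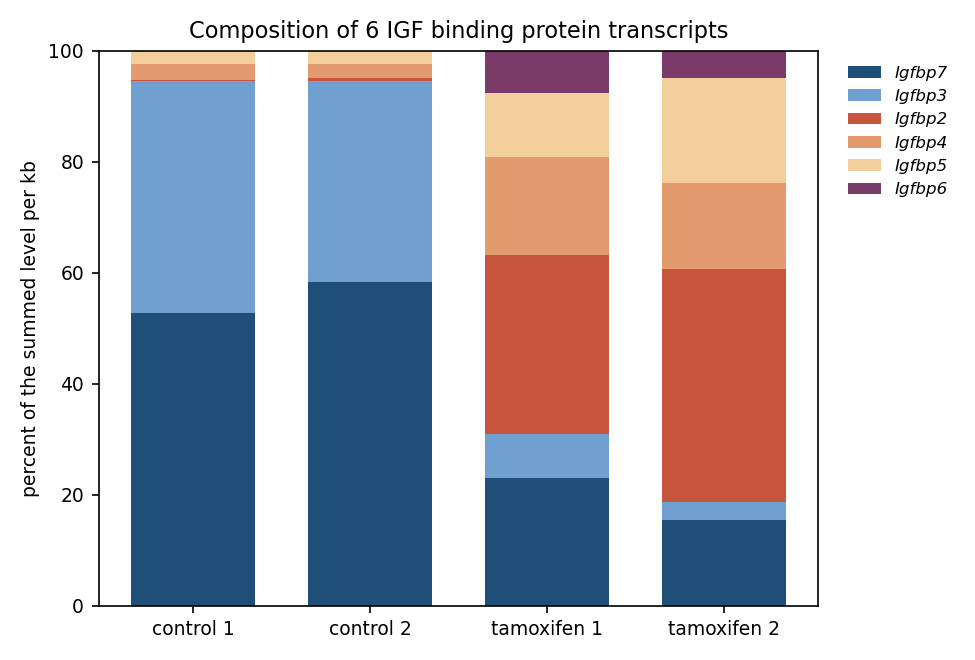
Percent of the summed level per kb of 6 IGF binding protein genes taken by each gene, 1 bar for each library. Igfbp7 and Igfbp3 (blue) fill 94.5% of both control bars, and Igfbp2, Igfbp4, Igfbp5 and Igfbp6 together fill 69.1% and 81.3% of the tamoxifen bars.

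Igf2bp1 showed the largest difference of the 10. It encodes an RNA-binding protein of embryonic tissues that was named for its binding to Igf2 mRNA, and it neither binds IGF protein nor resembles the IGFBPs (chromosome 11 from 95847989 to 95896911, minus strand). It had 17.8 and 22.5 normalized counts in the controls and 10746 and 8236 with tamoxifen, 470.6-fold more by the means. The log2 fold change was 8.80 (SE 0.25, 95% interval 8.22 to 9.39, limma with BH adjustment, adjusted p = 3.09e-06), the 28th highest of the 20485 tested genes. Its paralogs rose as well, Igf2bp2 from 31.5 and 53.8 to 3470.3 and 2676 normalized counts (log2 fold change 6.17, SE 0.32, limma with BH adjustment, adjusted p = 1.03e-05) and Igf2bp3 from 78.1 and 61.3 to 2909 and 2324 (5.21, SE 0.25, adjusted p = 8.35e-06). In all 3, tamoxifen library 1 was above tamoxifen library 2, by a factor of 1.30 for Igf2bp1, 1.30 for Igf2bp2 and 1.25 for Igf2bp3. The 10 pluripotency markers, which include Nanog and Pou5f1, differed by the factor 1.29 in their sum and had log2 fold changes between 4.68 and 9.77. Their summed level was 108 and 170.2 normalized counts in the controls and 58195 and 45222 with tamoxifen, none was at 0 reads, and their part in the Igf2bp1 result was not tested. Other lists had similar factors in their sums, 1.34 for neutrophil markers (log2 fold changes between 7.71 and 9.38) and 1.21 for microglia and macrophage markers. Their part in the Igf2bp1 result was not tested either.

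**Figure D3:**
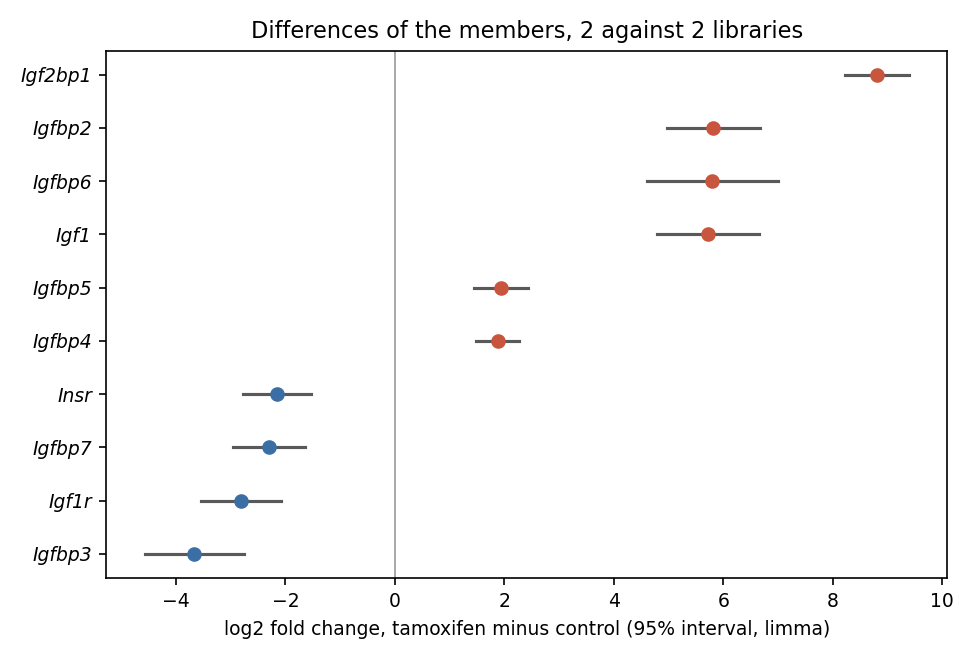
Log2 fold change (tamoxifen minus control) of each gene with its 95% interval from limma, 2 libraries in each group. Igf2bp1 stands at 8.80, Igfbp2, Igfbp6 and Igf1 lie close together between 5.72 and 5.82, and the 4 lower genes lie between -3.66 and -2.16.

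The other genes that rose were compared with the marker lists in the same way. Tamoxifen library 1 over tamoxifen library 2 was 0.926 for Igf1, 0.844 for Igfbp2, 1.25 for Igfbp4, 0.675 for Igfbp5 and 1.69 for Igfbp6. The same factor was 0.481 for the summed astrocyte markers, 0.236 for choroid plexus and ependymal, 0.668 for neuronal, 0.528 for pericyte and smooth muscle, 1.14 for fibroblast, 1.21 for microglia and macrophage, 1.34 for neutrophil and 1.54 for erythrocyte markers. For pluripotency markers it was 1.29 and for cell cycle genes 1.04. These 5 genes therefore did not share 1 order of the tamoxifen libraries. Summed levels in the controls and with tamoxifen were 29992 to 35823 and 158275 to 328901 normalized counts for astrocyte, 6799 to 9505 and 16522 to 70145 for choroid plexus and ependymal, 11183 to 14060 and 67548 to 76765 for fibroblast, and 2566 to 3893 and 6497 to 7865 for microglia and macrophage markers. No marker of these lists was at 0 reads in any library, and the part of such cells in the rise of Igf1 and of the binding proteins was not tested.

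The 4 genes that were lower were set beside the endothelial markers, a comparison chosen after their values had been seen. The 10 markers had log2 fold changes between -4.10 (Slco1a4) and -2.75 (Kdr), with a median of -2.94. Igf1r and Igfbp3, at -2.81 and -3.66, lay inside that range, and Insr and Igfbp7, at -2.16 and -2.30, were closer to 0 than every marker. In the tamoxifen libraries, library 1 exceeded library 2 by a factor of 1.72 for Igf1r, 1.59 for Insr, 2.65 for Igfbp3 and 1.64 for Igfbp7, and by 2.05 for the summed markers (1.64 to 3.17 for single markers). Expressed as a percent of the summed normalized counts of the 10 markers in the same library, Igf1r was at 12.7% and 12.2% in the controls and at 14.3% and 17.1% with tamoxifen. Insr was at 3.56% and 2.83% in the controls and at 5.50% and 7.13% with tamoxifen, and Igfbp7 went from a mean of 5.04% to one of 8.98% without overlap. These 3 genes were thus higher relative to the summed markers in both tamoxifen libraries, while Igfbp3 was lower, at 2.18% and 2.39% in the controls and at 1.80% and 1.40% with tamoxifen. The sum weighs most on the most abundant markers, so each marker was also used alone, an alternative added after seeing the data. Insr and Igfbp7 were higher in both tamoxifen libraries relative to 10 of 10 markers. Igf1r was higher relative to 4 of 10 (Tek, Emcn, Slco1a4 and Abcb1a) and overlapped for 6, its ratio to Kdr being 0.767 and 0.729 in the controls and 0.733 and 0.698 with tamoxifen. Igfbp3 was lower relative to 8 of 10, overlapped for Emcn and was higher relative to Slco1a4. These ratios were not tested, and the part of endothelial RNA in the fall of the 4 genes was not tested.

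**Figure D4:**
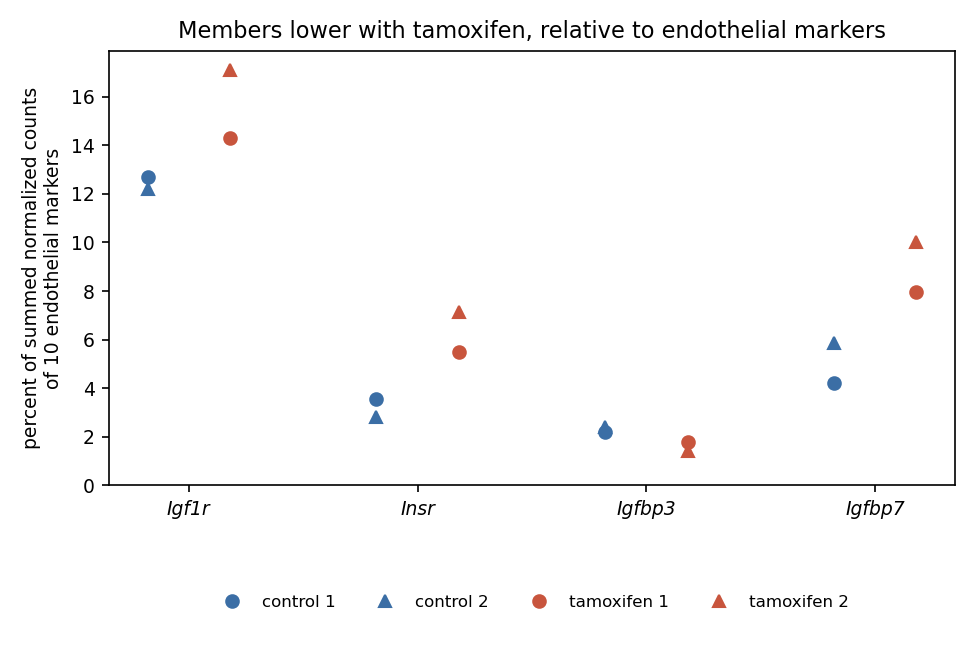
Normalized counts of the 4 lower genes as a percent of the summed normalized counts of 10 endothelial markers in the same library, with circles for library 1 and triangles for library 2 (blue, control; red, tamoxifen). Igf1r, Insr and Igfbp7 lie higher in both tamoxifen libraries (Igf1r 14.3% and 17.1% against 12.7% and 12.2%, though overlapping relative to 6 of the 10 markers taken singly), and Igfbp3 lies lower.

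The order of the 10 genes per kb of exon differed between the groups. In the controls it ran Igfbp7, Igfbp3, Igf1r, Insr, Igfbp4, Igfbp5, Igfbp2, Igfbp6, Igf2bp1, Igf1, and only Igfbp3 and Igf1r had overlapping libraries as neighbours in that order. With tamoxifen it ran Igfbp2, Igfbp7, Igfbp4, Igfbp5, Igf2bp1, Igf1r, Igfbp6, Igfbp3, Insr, Igf1. There Igfbp2 was above all others and Igf1 below all others in both libraries, and the neighbours between Igfbp7 and Igfbp5 and between Igf2bp1 and Insr overlapped. The means per kb spanned 1.21 to 8384 normalized counts in the controls and 68.5 to 3307 with tamoxifen.

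The rest of the pathway was examined in 42 further genes chosen by role, of which 40 were listed (Ins1 and Ins2 were not) and 39 had enough counts to be tested. Of these, 13 were called higher and 5 lower, or 46.2%, a share near the 44.7% of all tested genes. The median log2 fold change was 0.03 against 0.05 over all tested genes. Without tamoxifen library 2, 10 of the 39 were called and without tamoxifen library 1, 12.

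Among the further genes upstream of the receptors, all that passed were higher. These were 1 of 2 tested ligand and scavenger receptor genes and 3 of 4 relatives and partners of the binding proteins, Htra1 included. Of all tested genes, 28.6% were called higher. Igf2, the other IGF ligand, had 82.2 and 210.3 normalized counts in the controls and 235 and 512 with tamoxifen and did not pass (log2 fold change 1.39, SE 0.53, limma with BH adjustment, adjusted p = 0.0537). Igf2r, the receptor that clears IGF2 from the cell surface, rose from 3804 and 3323 to 19746 and 16047 (log2 fold change 2.32, SE 0.18, limma with BH adjustment, adjusted p = 5.17e-05), opposite to Igf1r and Insr. Among relatives and partners of the binding proteins, Igfbpl1 rose from 58.9 and 48.8 to 1759 and 3495 (log2 fold change 5.50). Igfals, the acid-labile subunit that joins IGFBP3 and IGF in blood, rose from 2.74 and 8.76 to 94.3 and 36.7 (3.31, SE 0.75). Its value in control library 1 lay below the 4.11 normalized counts of 3 reads there, so its fold change rests on few control reads. Igfbp1, a binding protein made mainly by liver, had 27.4 and 12.5 in the controls and 7.59 and 2.16 with tamoxifen and did not pass (limma with BH adjustment, adjusted p = 0.0579).

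The protease genes that act on binding proteins were higher. Pappa, whose product cleaves IGFBP4, rose from 4.11 and 10.01 to 233 and 197 normalized counts (log2 fold change 4.84, SE 0.58, limma with BH adjustment, adjusted p = 0.000282), and Pappa2, whose product cleaves IGFBP3 and IGFBP5, from 26.0 and 42.6 to 128 and 125 (1.89, adjusted p = 0.0103). The Pappa value of control library 1 amounts to 3 reads, so its fold change rests on few control reads. Htra1, a secreted serine protease, rose from 5647 and 6348 to 14330 and 27401 (1.73, adjusted p = 0.00160). Of the stanniocalcins, which inhibit PAPP-A, Stc2 rose from 52.1 and 52.6 to 257 and 241 (2.23, adjusted p = 0.00139), and Stc1 was at 297 and 314 in the controls and at 311 and 320 with tamoxifen (0.05, 95% interval -0.53 to 0.62). Of the substrate genes, Igfbp4 and Igfbp5 thus rose and Igfbp3 fell, and of the inhibitor genes Stc2 rose and Stc1 did not. Of the 4 genes Pappa, Pappa2, Stc1 and Stc2, 3 were called higher, against 28.6% of all tested genes.

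Below the receptors, 5 of 11 adaptor genes passed, 2 higher and 3 lower. This share of 45.5% is near the 44.7% of all tested genes. Irs1 rose from 98.6 and 113 to 1077 and 1491 normalized counts (log2 fold change 3.58, SE 0.27, limma with BH adjustment, adjusted p = 4.43e-05) and Irs2 from 173 and 136 to 1243 and 1211 (2.99, SE 0.23, adjusted p = 5.41e-05). Irs4 fell from 67.1 and 218 to 4.33 and 10.1 (-3.99, SE 0.73, adjusted p = 0.00232). Grb10 and Grb14, adaptors that dampen the kinase activity of both receptors, fell as the receptors did, Grb14 from 6999 and 6100 to 1125 and 669 (-2.91, adjusted p = 7.19e-05) and Grb10 from 11607 and 10278 to 4154 and 3292 (-1.56, adjusted p = 0.000233). The other 6 adaptor and phosphatase genes, among them Shc1, Grb2 and Ptpn11, did not pass both cut-offs.

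In the PI3-kinase and AKT branch, 4 of 16 tested genes passed (25%, against 44.7% of all tested genes), 2 higher and 2 lower, and the log2 fold changes stayed between -1.81 and 1.06. Without the cut-offs, 10 of the 16 were lower in both tamoxifen libraries and 3 higher, against 39.2% and 43.1% of all tested genes. Their median log2 fold change was -0.40, a size that scaling to equal totals can shift, since it moved the median of all genes by 0.47. Foxo1, a transcription factor that AKT keeps out of the nucleus, fell from 12918 and 13065 to 3879 and 3521 (-1.81, SE 0.16, limma with BH adjustment, adjusted p = 7.64e-05), and Foxo3 was at 5138 and 5229 in the controls and at 5755 and 4885 with tamoxifen. Akt2 was higher (1.06, adjusted p = 0.00248) and Akt1 was at -0.92, short of the size cut-off. The regulatory subunit gene Pik3r2 was higher (2.01-fold by the means, adjusted p = 0.00102) and Rictor, a subunit of the second mTOR complex, lower (-1.24, adjusted p = 0.00143).

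**Figure D5:**
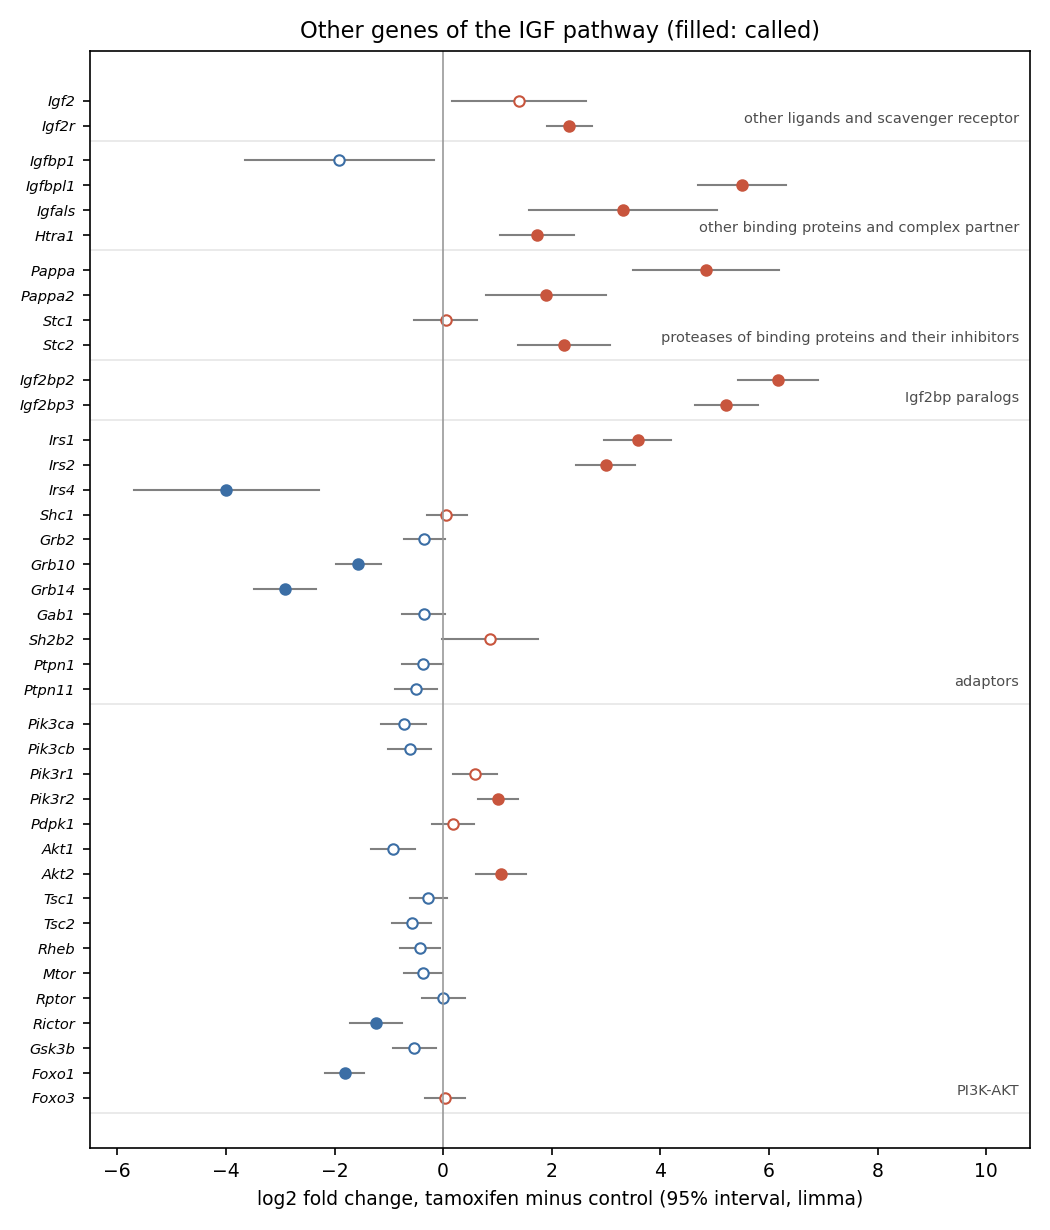
Log2 fold change (tamoxifen minus control) with 95% interval from limma for the 39 tested genes of the IGF pathway beyond the 10 described first, grouped by role. Filled points passed both cut-offs (13 higher in red, 5 lower in blue), and the PI3-kinase and AKT genes stay between -1.81 and 1.06.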

How the data were processed

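RNA of cerebral cells, CD31+CD45- per the study's methods, was sequenced from a KAPA stranded mRNA library. Per the labels and the study's methods, alignment by the authors used STAR 2.7.10a and the build GRCm39, with counting in the same step. They dropped low-count genes before normalization in DESeq2 1.36.0. The deposited signal is each gene's read count divided by 1 factor per library (0.730, 0.799, 0.923 and 1.39). The annotation release, strand setting and low-count limit are not given in the sources used here. Dividing each column by its smallest value gave whole numbers (within 0.01) for 100% of values, taken as reads. A count of 0 allows up to 3 reads, or 2.16 to 4.11 normalized counts.

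Tests by limma 3.58.1 in R 4.3.3 covered genes whose normalized counts averaged 10 or more (mean-variance trend, BH adjustment), on log2(normalized count + 1), a scale that understates changes of low genes. The study calls the pools of mice independent, and p-values measure the spread between pools. Levels per kb used the joined length of all annotated exons of a gene (GENCODE M39), found for 98.0% of genes. This length can exceed that of the transcript expressed, so orders, ranks and shares per kb depend on it. Percent called is the share of tested genes past both cut-offs. The fit was tested on simulated data in which few genes changed, as many up as down. That setting does not cover libraries in which 44.7% of tested genes were called. Alternatives were other pseudocounts (0.5 and 5), filters (none and a mean of 100), scalings, no trend, a replicate block, each library left out, and the recovered reads fitted with edgeR 4.0.16 or DESeq2 1.42.0. All members are named, and the members and gene lists were chosen with earlier results of these data known. Some genes of the pathway are not reported here. Promoters were searched in Python 3.11.15.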

Additional observations from a re-analysis of the deposited data

How the results depend on the processing

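Of 140 values, 10 genes under 14 alternatives each, none changed sign and 139 kept the call, the exception being Insr without tamoxifen library 2. Quantile normalization moved several by over 1.5 times, to a log2 fold change of -1.78 for Igf1r, -1.55 for Insr, -1.56 for Igfbp7, 4.95 for Igf1 and 4.98 for Igfbp6, and the cause was not tested. All 10 genes were called by edgeR and by DESeq2 on recovered reads. Leaving out 1 library in turn gave between 9 and 10 of the 10 genes, between 10 and 21 of the pathway genes and between 4147 and 9700 genes in all. With 1 library left in a group, that library is assumed to vary like the other group. The filter at a mean of 100 normalized counts left 5934 genes called because fewer were tested, and all 10 remained. Library numbers are shared between the groups but come with no stated pairing, and the differences between libraries 1 and 2 correlated by r = 0.0251 across genes in control and tamoxifen. With the replicate number as a block, 10 of the 10 genes, 20 pathway genes and 9525 genes in all were called, with 1 residual degree of freedom. Igf1 and Igfbp6, at 15 reads or fewer in each control library, are those of the 10 genes that depth limits most.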
